A study of Mus musculus with 7 samples.

Results

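Lectican proteolysis was followed through the RNA of 10 genes in the optic nerve of mice at postnatal day (P) 14. The genes are 5 secreted metalloproteases that cut lecticans (Adamts1, Adamts4, Adamts5, Adamts9 and Adamts15), 3 lecticans (Acan, Bcan and Ncan), the inhibitor Timp3 and the link protein Hapln1. They were selected by gene name from a table of 22880 genes, and all 10 have a row in it. They were chosen on results of the same comparison of mutants with controls, so their values in that comparison are given as a description, and how many of them passed the threshold is given only as a count, from which nothing is read. Control mice (n = 4) carried the floxed fatty acid synthase allele on both chromosomes and no Cre (FASN lox/lox). Mutant mice (cMU, n = 3) carried the same floxed alleles together with Cre driven by the Olig2 promoter (olig2cre FASN lox/lox), which is active in cells of the oligodendrocyte (OL) lineage. The labels give a C57Bl/6 background for both groups, and the floxed line had been backcrossed to it over at least 3 generations. Each sample was the pair of optic nerves of a single mouse. Cre was present in the mutants only, so its presence and the loss of Fasn cannot be told apart.

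Fasn, the enzyme of de novo fatty acid synthesis and the targeted gene, was lower in every mutant than in every control. Its level was 210, 169, 211 and 228 FPKM (fragments per kilobase of gene width, scaled to the library size) in controls 1 to 4, and 69.3, 50.5 and 49 FPKM in mutants 1 to 3. The mutant mean was 27.5% of the control mean, with a log2 difference of -1.86 ± 0.138 (SE, limma-trend adjusted p = 0.00312). The step between the lowest values gave an estimated depth of 27452222 to 43462575 reads per sample. Of 13866 genes that passed the filter of at least 0.5 FPKM in at least 3 samples, 363 were called in the mutants at an adjusted p under 0.05, 175 of them higher and 188 lower. The median log2 difference of all 13866 genes was 0.05.

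Lecticans are large proteoglycans that carry chondroitin sulfate chains and bind hyaluronan through one end of their core protein, a contact that link proteins hold in place. ADAMTS proteases of the aggrecanase group cut the core protein between its globular domains and so release the part that carries the chains. TIMP3, which stays bound to the extracellular matrix, is the main tissue inhibitor of these proteases. In white matter, Adamts4 is known as a gene of maturing OLs, while brevican and versican surround axons and the nodes of Ranvier.

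Each of the 5 proteases holds a catalytic zinc in a short stretch with 3 histidines, and the coding sequences of that stretch are shown because it is the part that cuts lecticans. They were read 5′ to 3′ from GENCODE M21 transcripts (GRCm38), with the 3 histidine codons in capitals.
Adamts4 zinc site: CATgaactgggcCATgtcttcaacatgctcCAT
Adamts15 zinc site: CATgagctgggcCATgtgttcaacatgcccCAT
Adamts1 zinc site: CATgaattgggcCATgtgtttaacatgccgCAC
Adamts9 zinc site: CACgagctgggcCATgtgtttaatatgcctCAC
Adamts5 zinc site: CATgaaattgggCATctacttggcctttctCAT
Of the 33 bases of Adamts4, 30 were the same in Adamts15, 27 in Adamts1, 25 in Adamts9 and 19 in Adamts5. The 11 codons encoded the residue of Adamts4 at 10 positions in Adamts1, Adamts9 and Adamts15, and at 5 positions in Adamts5. In each of the 5 genes an intron split the site, so that the genomic span is longer than the 33 bases. The span was chr1:171253210-171253915 on the plus strand for Adamts4 (exons 3 and 4 of 9), and on the minus strand chr9:30911255-30911690 for Adamts15 (exons 2 and 3 of 8). It was chr16:85799191-85799545 for Adamts1 (exons 3 and 4 of 9), chr6:92905285-92908493 for Adamts9 (exons 8 and 9 of 40) and chr16:85878015-85887826 for Adamts5 (exons 2 and 3 of 8), all on the minus strand.

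The sites that these proteases cut in the lecticans lie next to a glutamate, and the coding sequences around the cut are shown for the substrates described below. The capitals mark the codon of the glutamate and the codon after it, between which the chain is cut.
Bcan cleavage site: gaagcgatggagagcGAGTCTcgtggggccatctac
Vcan cleavage site: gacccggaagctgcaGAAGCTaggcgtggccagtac
Acan cleavage site: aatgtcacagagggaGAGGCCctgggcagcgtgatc
The brevican cut follows residue 395 of 883 and is encoded in exon 7 of 14 (chr3:87994191-87994226, minus strand). The versican cut follows residue 1401 of 3354 in exon 8 of 15 (chr13:89693203-89693238, minus strand), and 2 of 8 coding transcripts of Vcan contain the site. The aggrecan cut follows residue 392 of 2132 in exon 7 of 17 (chr7:79091046-79091081, plus strand). The site was found in 1 of 2 coding transcripts of Bcan and in 1 of 2 of Acan, and gene levels do not tell these transcripts apart. All 3 sites lie in coding exons and each follows a glutamate codon, GAG in Bcan and Acan and GAA in Vcan.

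Adamts4, the aggrecanase with the highest level in these nerves, was lower in every mutant than in every control. Its level was 144, 134, 144 and 144 FPKM in controls 1 to 4 and 94.9, 98.8 and 97.2 FPKM in mutants 1 to 3. The groups were far apart for their spread, with means of 141 ± 4.86 FPKM (SD, n = 4) and 97 ± 1.93 FPKM (SD, n = 3), and the mutant mean was 68.5% of the control mean. On the scale of log2(FPKM + 0.5), used for every log2 difference below, the mutants differed from the controls by -0.54 ± 0.0542 (SE, 95% interval -0.66 to -0.42). Over the alternatives the difference stayed between -0.62 and -0.53. Adamts4 lies at chr1:171250421-171260637 on the plus strand. In bulk nerve RNA, fewer cells of a type and less RNA per cell cannot be told apart.

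**Figure D1:**
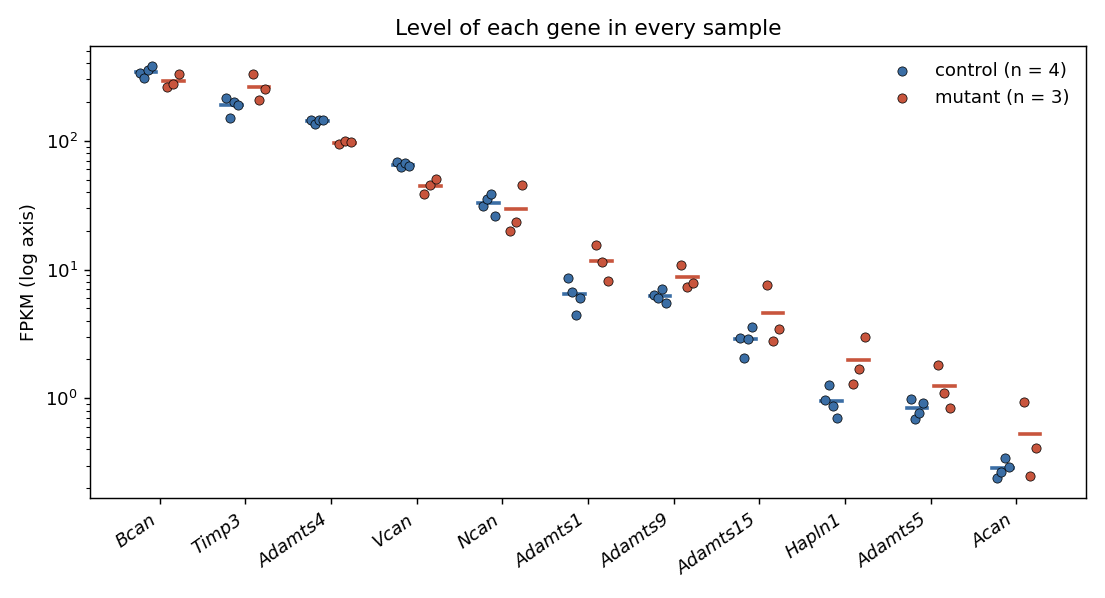
FPKM of the 10 genes and of Vcan in each sample, on a log axis. Points are single mice (4 controls, 3 mutants) and bars are group means, with genes ordered by control mean. The 3 mutants lie below all 4 controls for Adamts4 and Vcan and above them for Adamts9 and Hapln1.

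The other 4 proteases had higher mean levels in the mutants and far lower levels than Adamts4. Adamts1, which also cuts versican in ovary and vessel wall, was at 8.53, 6.72, 4.47 and 6.04 FPKM in the controls and at 15.6, 11.4 and 8.09 FPKM in the mutants. Only mutant 3 fell within the range of the controls. The means were 6.44 ± 1.68 FPKM and 11.7 ± 3.77 FPKM, a log2 difference of 0.80 ± 0.238. With the replicate number of the labels as a block it was 0.78 ± 0.0893. The block did not narrow the SE of every gene: for Adamts4 it was 0.0728 with the block and 0.0542 without. For Hapln1 it was 0.228 with the block and 0.23 without. The labels do not say what a replicate number marks.

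Adamts9, which cuts versican and aggrecan, was at 6.37, 6.05, 7.1 and 5.48 FPKM in the controls and at 10.9, 7.35 and 7.81 FPKM in the mutants. All 3 mutants lay above all 4 controls, and mutant 1 stood highest. On the log2 scale they differed by 0.43 ± 0.141, which fell to 0.26 without mutant 1. Adamts9 overlaps A730049H05Rik and Gm15737 on the other strand, and whether the counting used strand was not stated.

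Adamts15, another protease that cuts versican, was at 2.95, 2.04, 2.87 and 3.59 FPKM in the controls and at 7.65, 2.78 and 3.44 FPKM in the mutants. Mutants 2 and 3 lay among the controls, and mutant 1 alone stood above them. This gave a log2 difference of 0.51 ± 0.294, which fell to 0.12 ± 0.188 without mutant 1. Adamts5, the main aggrecanase of cartilage, was at 0.981, 0.69, 0.773 and 0.92 FPKM in the controls and at 1.8, 1.1 and 0.834 FPKM in the mutants. Here too the groups overlapped, through mutant 3, and the log2 difference of 0.35 ± 0.192 fell to 0.13 ± 0.165 without mutant 1. Between 185 and 520 estimated reads per sample lay behind the values of Adamts5, against 10868 to 25472 for Adamts4.

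Within the protease group, Adamts4 made up a smaller share of the RNA in every mutant than in every control. The FPKM of the other 4 proteases summed to 18.8, 15.5, 15.2 and 16 in the controls and to 36, 22.7 and 20.2 in the mutants, without overlap. Of these 4, only Adamts9 was without overlap by itself. Adamts4 made up 88.5, 89.6, 90.4 and 90% of the summed FPKM of the 5 proteases in the controls and 72.5, 81.3 and 82.8% in the mutants. That separation follows from the lower Adamts4 and the higher sum of the others, and is no further result. It remained the major transcript of the group in every sample. The sum of all 5 was 158 ± 5.76 FPKM in controls and 123 ± 6.96 FPKM in mutants, again without overlap. As Adamts4 made up most of that sum, this too is no further result.

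Timp3, the inhibitor, was one of the most abundant of the 10 transcripts. Its level was 216, 150, 200 and 190 FPKM in the controls and 331, 207 and 251 FPKM in the mutants. Mutant 2 lay between controls 3 and 1, and the other 2 mutants lay above all controls. On the log2 scale they differed by 0.46 ± 0.167, and by 0.47 ± 0.084 with the replicate block. Without control 2 and mutant 1, the samples with the lowest and the highest level, it was 0.17 ± 0.0988. Timp3 overlaps Syn3 on the other strand.

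The ratio of Adamts4 to Timp3, which does not depend on how a sample was scaled, was 0.668, 0.898, 0.718 and 0.757 in the controls. It was 0.287, 0.477 and 0.388 in the mutants, so that the highest mutant stayed below the lowest control. That separation follows from the levels of Adamts4 and Timp3 given above, and is no further result. The means were 0.76 ± 0.0986 (SD, n = 4) and 0.384 ± 0.0951 (SD, n = 3). Leaving out any sample moved the mutant mean to between 0.444 and 0.569 of the control mean, from 0.505 with all 7. Control 2 had both the lowest Timp3 and the highest ratio, and mutant 1 the highest Timp3 and the lowest ratio.

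**Figure D2:**
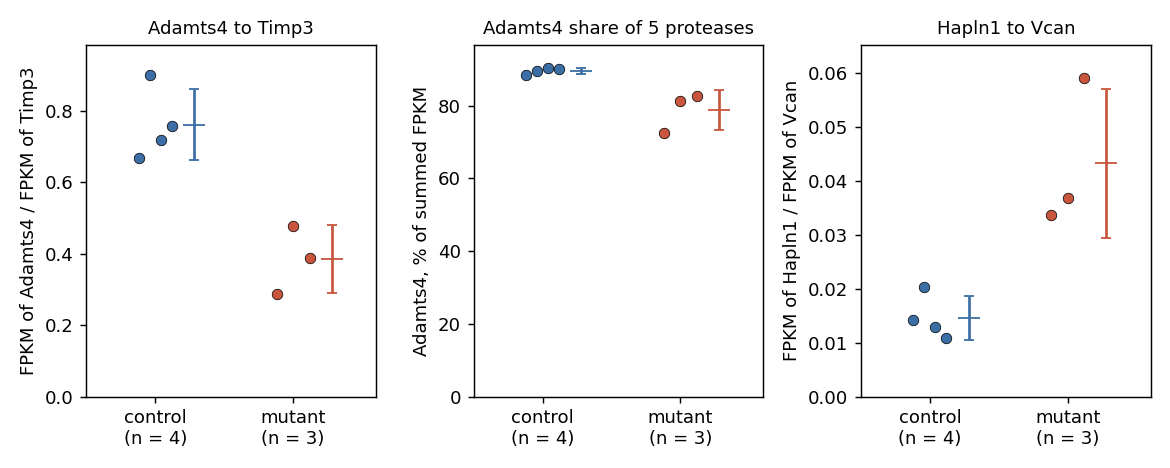
FPKM ratio of Adamts4 to Timp3, share of Adamts4 in the summed FPKM of the 5 proteases (%), and FPKM ratio of Hapln1 to Vcan. Points are single mice and the bars beside them are means ± SD. The groups do not overlap in any of the 3 panels: the ratio of Adamts4 to Timp3 is 0.76 ± 0.0986 in controls and 0.384 ± 0.0951 in mutants. In each panel this follows from the levels of the parts, and is no further result. For the share and for Hapln1 to Vcan the parts are already apart.

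Among the substrates, Bcan was the most abundant of the lecticans in every sample. Brevican is a short lectican made by OPCs, OLs and astrocytes. Its level was 334, 305, 352 and 378 FPKM in the controls and 260, 275 and 332 FPKM in the mutants. Mutants 1 and 2 lay below all controls, while mutant 3 lay among them. On the log2 scale they differed by -0.25 ± 0.102.

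Ncan, whose product neurocan is a lectican of the developing brain, was at 31.3, 35.3, 38.5 and 26 FPKM in the controls and at 19.8, 23.5 and 45 FPKM in the mutants. The mutants lay on both sides of the controls, with mutant 3 highest of all 7 samples. Its log2 difference of -0.23 ± 0.252 ranged from -0.58 without mutant 3 to 0.00 without mutant 1. Mutant 3 also had the highest summed level of the 8 neuron markers, 155 FPKM against 86.8 to 115 FPKM in the other 6 samples, and the part of those cells in the value of Ncan was not tested.

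Acan, encoding the large lectican of cartilage and perineuronal nets, had the lowest level of the chosen genes. Its level was 0.242, 0.267, 0.341 and 0.291 FPKM in the controls and 0.936, 0.249 and 0.411 FPKM in the mutants, on 57 to 246 estimated reads. Only mutant 1 reached 0.5 FPKM, and Acan was therefore left out of the fit.

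Vcan, the remaining lectican and no member of the chosen set, was called lower in the mutants. Versican is made by OPCs and by mesenchymal cells. Its level was 68, 62.4, 67 and 64.3 FPKM in the controls and 38.3, 45.5 and 50.5 FPKM in the mutants, without overlap. The log2 difference was -0.55 ± 0.0908 (limma-trend adjusted p = 0.0265), and the mutant mean was 68.5% of the control mean. The adjusted p ranged from 0.00933 to 0.0992 over the alternatives, and the call was lost without any 1 of the 4 controls or without mutant 3.

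The FPKM of the 4 lecticans summed to 434, 403, 458 and 469 in the controls and to 319, 344 and 427 in the mutants. Mutants 1 and 2 lay below all controls and mutant 3 lay among them. Bcan made up 77.6 ± 2.16% of that sum in controls and 79.7 ± 2% in mutants, with overlap. Vcan made up 15.7, 15.5, 14.6 and 13.7% in the controls and 12, 13.2 and 11.8% in the mutants, all below the lowest control. The FPKM of a gene rests on the deposited gene width, which was 3885 bases for Vcan and 1424 bases for Bcan, while their longest GENCODE transcripts have 12427 and 3141 bases.

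Hapln1, the link protein that holds lecticans on hyaluronan, had the largest ratio of group means of the 10 genes, at a low level. It was at 0.963, 1.26, 0.869 and 0.701 FPKM in the controls and at 1.29, 1.68 and 2.99 FPKM in the mutants. The mutants lay above the controls, but mutant 1 exceeded control 2 by little, and 111 to 415 estimated reads per sample lay behind the values. The log2 difference was 0.74 ± 0.23, and it was 0.46 ± 0.187 without mutant 3. Hapln1 lies 43.5 kb from Vcan on chromosome 13, with no gene of the table between them, and the log2 differences of the pair had opposite signs. The ratio of Hapln1 to Vcan was 0.0142, 0.0203, 0.013 and 0.0109 in the controls and 0.0338, 0.0369 and 0.0592 in the mutants, without overlap. This follows from every mutant lying above the controls for Hapln1 and below them for Vcan.

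The other link proteins also neighbour lecticans. Hapln2, a link protein of the nodes of Ranvier, lies 21.5 kb from Bcan and was at 28.9 ± 4.38 FPKM in controls and 31.2 ± 5.55 FPKM in mutants (adjusted p = 0.688). Hapln3 next to Acan was at 0.392 ± 0.13 and 0.665 ± 0.173 FPKM (adjusted p = 0.212), and Hapln4 next to Ncan was at 0.296 ± 0.08 and 0.208 ± 0.0273 FPKM and was not tested. No link protein gene passed the test.

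Over the 10 genes, 9 passed the filter on low values, of which 6 had a positive and 3 a negative log2 difference. Of these, 1 was called (Adamts4, lower), against 2.62% of all tested genes in either direction, 1.36% lower and 1.26% higher. All mutants lay below all controls for 1 of them (Adamts4), against 8.26% of all tested genes, and above all controls for 2 of them (Adamts9 and Hapln1), against 12.9% of all tested genes. Since the genes were chosen on this contrast, nothing is read from these counts. The count was 0 without control 3 or mutant 3, where 6 of all tested genes were called in each case. With the replicate block it was 3 (Adamts1, Adamts4 and Timp3), and 1159 of all tested genes were called, 890 higher and 269 lower.

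**Figure D3:**
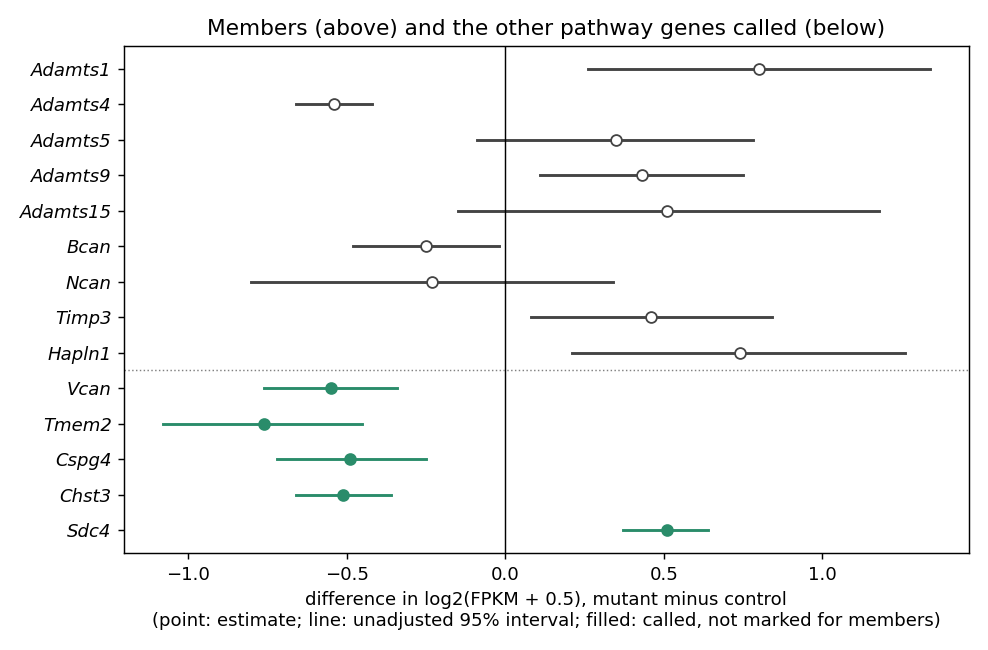
Log2 difference between mutants and controls for the 9 tested genes of the set (above the dotted line) and for the 5 further genes of lectican turnover that were called (below it). Points are estimates on the scale of log2(FPKM + 0.5), lines are unadjusted 95% intervals, and filled points passed the adjusted threshold over all 13866 genes, which is not marked for the set. Adamts4 at -0.54 has the narrowest interval of the set.

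In level per length, the controls were ordered Bcan, Timp3, Adamts4, Vcan, Ncan, Adamts1, Adamts9, Adamts15, Hapln1, Adamts5 and Acan, from a median of 343 FPKM to 0.279 FPKM. The control samples of neighbours in this order overlapped for Adamts1 and Adamts9 and for Hapln1 and Adamts5, and were apart for all other neighbours. The order of the means was the same in the mutants. With the longest GENCODE transcript as the length in place of the deposited width, Adamts4 and Timp3 exchanged places in the controls, as did Vcan and Ncan, and the other 7 genes kept theirs. By that length the order differed between the groups. In the mutants Timp3 ranked 1, Bcan 2 and Adamts4 3, and Ncan stood above Vcan.

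The rest of the pathway was described with 81 further genes listed by function, of which 70 were tested. Of these, 1 was called higher and 4 were called lower, beside 2.62% called among all tested genes, and 56 had a positive and 14 a negative log2 difference. Their median log2 difference was 0.20, beside 0.05 over all tested genes. With the replicate block 18 were called, 14 higher and 4 lower. Without control 2, control 3 or mutant 3 none of them was called, while 15, 6 and 6 of all tested genes were. The lists were chosen with earlier results of these data known, so nothing is read from these counts or from the median.

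The 4 called lower were Vcan, Chst3, Tmem2 and Cspg4. Chst3, a sulfotransferase that adds sulfate to the chondroitin chains of lecticans, was at 14.1, 13.6, 14.2 and 13.3 FPKM in the controls and at 9.44, 9.63 and 9.52 FPKM in the mutants. Its groups were as tight as those of Adamts4, and its log2 difference was -0.51 ± 0.0651 (limma-trend adjusted p = 0.0155, 0.00426 to 0.0787 over the alternatives). Tmem2, a hyaluronidase of the cell surface, was at 36.7, 26.3, 30.1 and 24.1 FPKM in the controls and at 19.1, 15.3 and 16.4 FPKM in the mutants. Every mutant lay below every control, with a log2 difference of -0.76 ± 0.14 (adjusted p = 0.0337, 0.00751 to 0.115 over the alternatives).

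Cspg4, the NG2 proteoglycan of OPCs, was at 11.8, 9.7, 13 and 12.2 FPKM in the controls and at 8.36, 7.78 and 8.31 FPKM in the mutants. The log2 difference was -0.49 ± 0.103 (adjusted p = 0.0474, 0.0128 to 0.14 over the alternatives), and the call was lost without any 1 of the 7 samples. Tnr, encoding the tenascin that binds lecticans around axons and the most abundant gene of its list, was at 293 ± 15.1 FPKM in controls and 224 ± 34.1 FPKM in mutants. Although all mutants lay below all controls, Tnr was not called (log2 difference -0.40 ± 0.102, adjusted p = 0.0721).

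The only further gene called higher was Sdc4, encoding syndecan-4, a heparan sulfate proteoglycan that binds aggrecanases at the cell surface. Its level was 54.8, 54.2, 56.6 and 60.7 FPKM in the controls and 79.4, 81.9 and 80.1 FPKM in the mutants. The groups were far apart, with a log2 difference of 0.51 ± 0.0588 (limma-trend adjusted p = 0.0148, 0.00312 to 0.0695 over the alternatives). The calls of Sdc4 and Chst3 were lost without control 2, control 3 or mutant 3, and that of Tmem2 without those samples or control 1.

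No gene of the remaining lists was called, and most of their differences were positive. The 10 tested ADAMTS genes outside the aggrecanase set had a median log2 difference of 0.24, with Adamts10 highest in level at 15.5 ± 1.45 FPKM in controls and 19.6 ± 6.19 FPKM in mutants (adjusted p = 0.339). Adamts8 lies 20.1 kb from Adamts15 and was at 0.613 ± 0.0287 and 0.596 ± 0.0492 FPKM (adjusted p = 0.929). The 6 ADAMTS-like genes, whose products lack a protease domain, had a median of 0.48, and Adamtsl3 was at 14.7 ± 6.4 and 28.8 ± 13.3 FPKM (adjusted p = 0.194).

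The 3 other Timp genes had a median log2 difference of 0.31. Timp2 was at 142 ± 14.2 FPKM in controls and 176 ± 17.2 FPKM in mutants, with all mutants above all controls, and was not called (adjusted p = 0.103). Timp3 held 50.5 ± 2.19% of the summed FPKM of the 4 Timp genes in controls and 52.9 ± 4.28% in mutants, with overlap. Metalloproteases of other families that cut lecticans, 7 of them tested, had a median of 0.09, and their most abundant gene, Mmp14, was at 62.9 ± 10.5 and 94.3 ± 29.2 FPKM (adjusted p = 0.136).

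The genes of chondroitin sulfate chain synthesis had a median log2 difference of 0.10 over 19 tested, and Ust, a sulfotransferase and the most abundant of them, was at 25.6 ± 1.14 and 25.4 ± 1.4 FPKM (adjusted p = 0.939). The 8 tested partners of lecticans in hyaluronan and tenascin had a median of 0.13, and the 5 other chondroitin sulfate proteoglycans had a median of 0.08. Bgn, encoding biglycan, was the most abundant of the latter, at 92.9 ± 13.7 and 139 ± 54.5 FPKM (adjusted p = 0.178). The 9 genes of activation, binding and clearance of Adamts4 had a median of 0.38, and Fn1, encoding fibronectin, was at 182 ± 47.3 and 288 ± 118 FPKM (adjusted p = 0.204).

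**Figure D4:**
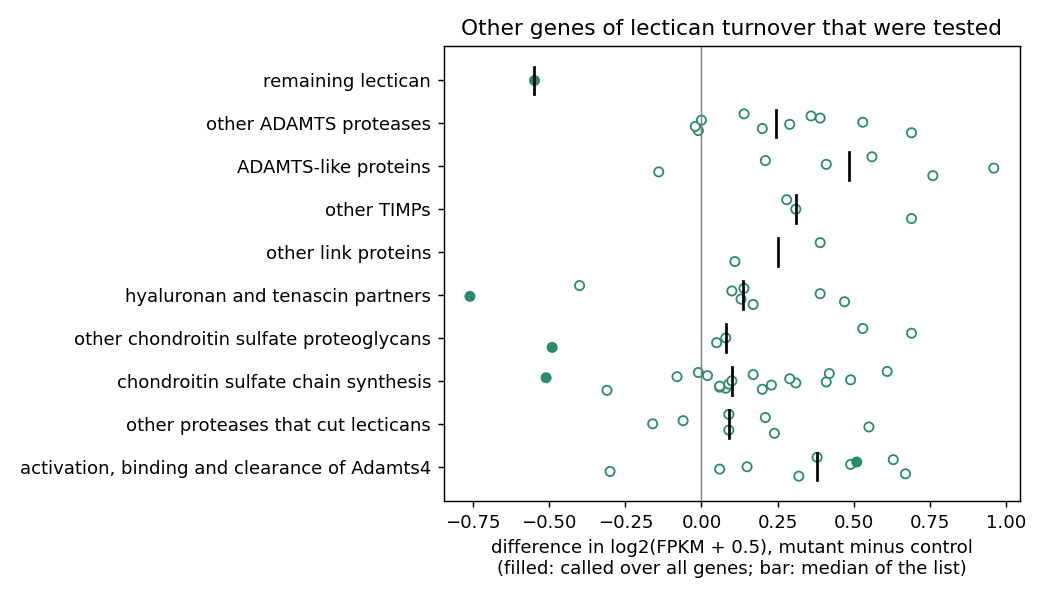
Log2 difference between mutants and controls of the 70 tested genes of lectican turnover outside the chosen set, by list. Each point is a gene, filled where it passed the adjusted threshold over all 13866 genes, and the black bar is the median of the list. The 5 filled points are Vcan, Tmem2, Cspg4 and Chst3 below 0 and Sdc4 above 0.

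Among 9450 genes with a mean of at least 5 FPKM, the 5 whose log2 level followed that of Adamts4 most closely over the 7 samples were Tecpr2, Dusp15, Kank1, Chst3 and Map1a, with Pearson's r from 0.989 to 0.993. These values are a description, since the 7 samples share the difference between the groups. Dusp15, a phosphatase gene known from OLs, was at 53 ± 0.945 FPKM in controls and 32.9 ± 1.53 FPKM in mutants. Tecpr2, an autophagy gene, was at 11 ± 0.191 and 9.49 ± 0.0764 FPKM, Kank1, a gene of the cell cortex, at 73.1 ± 0.976 and 53.9 ± 2.48 FPKM, and Map1a, a gene of the microtubules, at 84 ± 4.04 and 65.3 ± 0.693 FPKM. After the group means were subtracted, r was between 0.40 and 0.90 for the 5 genes. By Spearman's rho 1 of the 5 stayed among the 5 highest, and 0 of the 5 after the group means were subtracted. Of the lecticans, Vcan had an r of 0.94 with Adamts4, Bcan 0.74 and Ncan 0.29.

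Markers of the cell types in the nerve differed between the groups, and no marker gene was at 0 in any sample. The 8 markers of mature OLs summed to 31840 to 34047 FPKM in controls and 22985 to 30080 FPKM in mutants. All 8 had a negative log2 difference, and Mag and Cnp were called lower. The groups overlapped for Mog, Aspa, Ermn and Opalin, and Opalin was at 97.8% of the control mean. The 8 markers of newly formed OLs summed to 895 to 997 and 641 to 800 FPKM, with Tmem163, Rras2 and Casr called lower, and 7 of the 8 had a negative log2 difference. The 8 OPC markers summed to 411 to 454 and 302 to 367 FPKM, 7 of them with a negative log2 difference, and Cspg4 and Gpr17 were called lower. Gpr17 alone was at 241 ± 26.8 and 164 ± 14.7 FPKM, and without it the sums overlapped, at 178 to 199 FPKM in controls and 152 to 187 FPKM in mutants. The authors place Gpr17 among transcripts enriched in myelin-forming OLs, which differs from its place in the OPC list here. Pdgfra and Ptprz1, also OPC markers, were at 89.7% and 106% of the control mean and were not called. The sums of both OL lists were lower in the same samples as Adamts4, and the part of the number or state of OLs in the level of Adamts4 was not tested.

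Of the lists for other cell types, the astrocyte list alone held called genes. All 10 astrocyte markers had a positive log2 difference, with summed levels of 3051 to 3494 FPKM in controls and 4021 to 4810 FPKM in mutants, and Slc1a2, Aldh1l1, Gja1 and Aldoc were called. The 8 markers of meningeal fibroblasts, the cells of the nerve sheath, summed to 2816, 2040, 2463 and 2449 FPKM in the controls and to 5183, 2692 and 3163 FPKM in the mutants, all 8 with a positive log2 difference and 0 called. Control 2 was lowest and mutant 1 highest in this sum, and also in the sum of the 8 mural cell markers. Vtn made up most of the mural sum, at 424 of 533 FPKM in mutant 1. In the mean log2 level of the mural list relative to controls, control 4 was lowest (-0.26) and mutant 2 highest (0.31, against 0.28 in mutant 1). Control 2 was lowest and mutant 1 highest for Timp3, Adamts5 and Adamts15, and mutant 1 was highest for Adamts1, Adamts9 and Acan. The part of sheath tissue or of mural cells in these genes was not tested. The 8 endothelial markers summed to 152 to 178 and 183 to 210 FPKM, the 8 mural cell markers to 279 to 376 and 371 to 533 FPKM, and the 8 microglia markers to 239 to 287 and 269 to 311 FPKM. The sums of the mural and microglia lists overlapped between the groups, and 0 genes of these 3 lists were called.

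**Figure D5:**
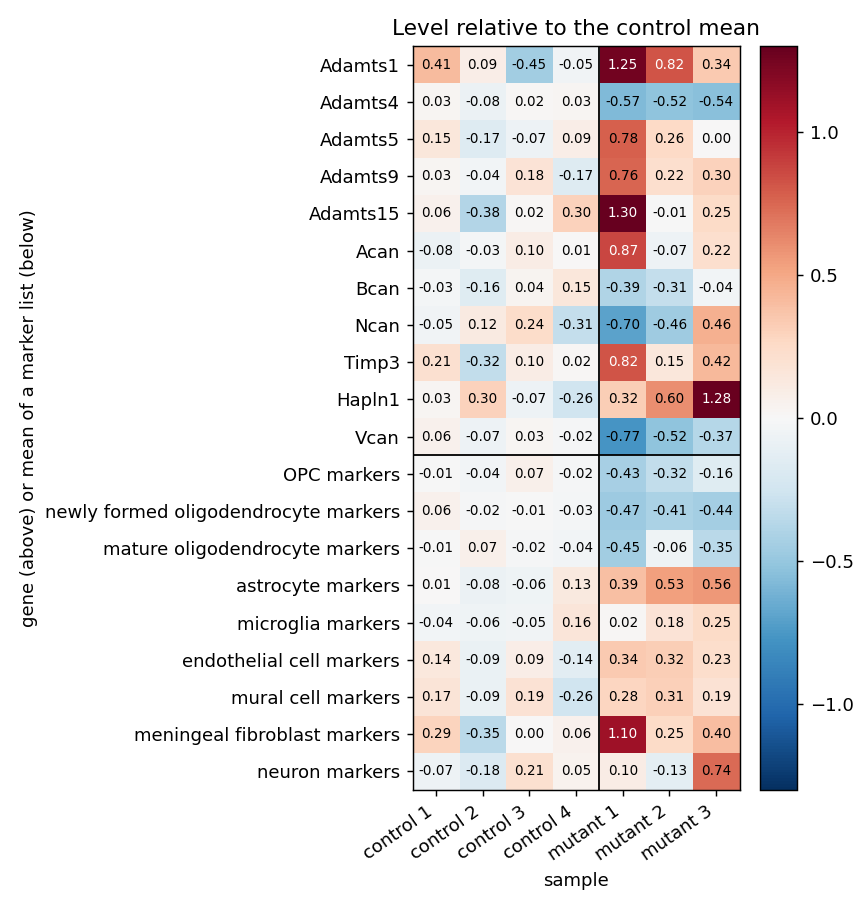
Level of each gene and mean level of each marker list in every sample, as log2(FPKM + 0.5) minus the control mean, with red above and blue below it. Adamts4 lies between -0.57 and -0.52 in the 3 mutants. Mutant 1 stands out for Adamts1, Adamts15, Timp3, Acan and the meningeal fibroblast markers, at 1.25, 1.30, 0.82, 0.87 and 1.10, and mutant 3 for Hapln1, Ncan and the neuron markers, at 1.28, 0.46 and 0.74.

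Without control 2 and mutant 1, Adamts4 differed by -0.55 ± 0.0606, and Sdc4 was the 1 pathway gene called, among 51 of all tested genes. Hapln1 differed by 1.04 ± 0.221, Adamts1 by 0.61 ± 0.245 and Adamts9 by 0.25 ± 0.123. Adamts5 differed by 0.07 ± 0.171, Adamts15 differed by -0.01 ± 0.147 and Ncan by 0.04 ± 0.257. The difference of Adamts4 was about as large as with all samples. The samples left out were chosen after seeing the data. Mutant 1 was the highest sample for Timp3, Adamts1, Adamts5, Adamts9 and Adamts15, so leaving it out lowers their mutant means by construction. For Hapln1, mutant 1 was the lowest mutant and control 2 the highest control, so its difference had to grow. Nothing is read from these changes.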

How the data were processed

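RNA of P14 optic nerves of 4 control and 3 mutant mice was sequenced by the authors from a stranded poly-A library. Reads were aligned with STAR 2.5.1b to GRCm38 and gene levels were estimated with RSEM 1.2.22. The authors deposited a normalized count per gene and sample, a signal that is the estimated count divided by a size factor whose method is not given in the sources used here. They also deposited FPKM values, derived from the counts, a gene width and the library size. All 14 sample columns are accounted for, and FPKM was used for every main value. The table also holds the authors' log2 ratio, p-value and FDR from edgeR, which were not used. Whether the counting used strand is not given in the sources used here. Low values came out as whole reads, within 0.02 times the number of reads, for 77 to 82.2% of them, too few for a test on counts. The depth was estimated from their step, 27452222 to 43462575 reads, and limits the precision most for Acan, Hapln1 and Adamts5. The samples are separate mice, and no pair of samples of a group agreed within sampling noise (median chi-square of 2.14 to 6.37 per gene).

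Log2(FPKM + 0.5) of 13866 genes with at least 0.5 FPKM in at least 3 samples was fitted with limma 3.58.1 in R 4.3.3 (eBayes with trend, genotype only, all 7 samples, two-sided, Benjamini-Hochberg over all tested genes, threshold 0.05). The fit was tested on simulated data. Sequences and positions came from GENCODE M21 (GRCm38), where the table gives the same build. The genes named were the 10 chosen genes, Fasn, Vcan, each called gene of the pathway lists, the most abundant gene of each list, the 5 genes most like Adamts4 among those with a mean of at least 5 FPKM, and marker genes. Hapln3, Hapln4 and Adamts8 were added afterwards as neighbours on the chromosome. The members and lists were chosen with earlier results of these data known. The alternatives were other pseudocounts, other filters, normalized counts, median centring, sample weights, the replicate block and leaving out each sample. Leaving out control 2 and mutant 1 together and the longest transcript as length were added after seeing the data. For the pairing, the deviations of same-numbered samples from their group means correlated at 0.168, 0.409 and 0.270, and those of other pairs at -0.353 to 0.205. The numbers come from the sample titles, and control 4 has no partner.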

Additional observations from a re-analysis of the deposited data

Results flagged for a closer look

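Of 38 groups of 4 control samples examined, 1 held a sample apart from the others. For Adamts4, control 2 (134 FPKM) lay below the other 3 controls, which were all at 144 FPKM, with a gap of 0.921 of the range of the group, which is above Dixon's 95% critical value for 4 samples. Chance alone gives such a gap in about 1 of 20 groups. Control 2 still lay above all 3 mutants.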

How the results depend on the processing

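The log2 difference of Adamts4 stayed between -0.62 and -0.53 in 16 alternatives and moved by more than the spread between replicates in 2 of them, to -0.62 with normalized counts and to -0.62 with median centring. Over all members, 139 of 143 values moved by less than the spread between replicates. Adamts15 changed sign in 1 alternative (-0.01) and Ncan ranged from -0.58 to 0.04, neither of them called. The number of genes called was 363, and became 95 with no filter on low values, 1525 with sample weights and 51 without control 2 and mutant 1. Leaving out 1 sample gave 6 to 907 genes: 60, 15, 6 and 117 without controls 1 to 4 and 186, 907 and 6 without mutants 1 to 3. The share called higher fell from 48.2% of the calls to 27.8% with normalized counts (103 higher, 267 lower) and 29.2% with median centring (117 higher, 283 lower). They rose to 59.5% with sample weights, 62.1% without mutant 2 and 76.8% with the replicate block (890 higher, 269 lower). Members called numbered 1, 2 with sample weights (Adamts4 and Hapln1), and 0 to 1 when 1 sample was left out. Pathway genes called numbered 5, 2 with no filter, 9 with sample weights, 1 without control 2 and mutant 1, and 0 to 6 when 1 sample was left out. With the replicate block 1159 genes, 3 members and 18 pathway genes were called, and the block took no call from a member or pathway gene. The cause of these changes was not tested. Acan was left out of the main fit by the filter on low values.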
